A study of Danio rerio with 4 samples.

Results

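Pigment cell and neural crest genes were examined in whole zebrafish embryos that carry NUP98-HOXA9 (NHA9), a fusion oncogene of human myeloid leukaemia. All probes named for 10 genes were taken, namely mitfa, dct, tyr, tyrp1b, pmela, foxd3, kita, gch2, crestin and tfap2a, and 8 of these were measured, among 9665 named genes, by 23 of 20406 probes. No probe used here was named for tyr or kita, so these 2 genes were not analysed here. NHA9 embryos came from the Tg(spi1::lox-eGFP-lox::NHA9) line crossed to a transgenic line with Cre under hsp70, a heat shock promoter, so that heat shock removes the eGFP cassette and frees the fusion gene. They were compared with lGl embryos, from that same floxed line crossed to wildtype AB fish, in which the cassette is intact. Both kinds carry the transgene, were heat-shocked at 37 °C for 1 hour at 24 hours post-fertilization (hpf), and gave RNA at 28 hpf, 4 hours after the heat shock. The transgene is driven by the promoter of spi1, a transcription factor gene of myeloid blood cells and not of the crest. The crosses also differed in Cre and in the partner line, and these cannot be told apart from the fusion gene.

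There were 2 RNA extracts of each kind, hybridised as 2 extract pairs, each on a forward array (NHA9 in the channel labelled Cy5) and on a dye-swap array. The labels call the extracts biological replicates without giving the embryos or clutches behind them, so p-values measure the spread between these extracts, which may be technical. The deposited values are 1 log ratio per probe and array, read here as log2, where 1 unit is a 2-fold difference. The sources used here give neither base, centring nor direction, and column medians were −0.01 and 0.03 for the forward and dye-swap arrays of pair 1 and −0.01 and 0.03 for those of pair 2. Because an array and its dye swap correlated positively as deposited (r = 0.747 in pair 1 and 0.465 in pair 2 over probes, which are not independent replicates), all 4 columns were read as NHA9 over lGl. Between the pairs, r was 0.449 for the forward arrays and 0.387 for the dye swaps. For arrays of opposite orientation it was only 0.112 and 0.109, so the pairs resembled each other less across orientations than within one. That direction is likely from the titles and dyes for the forward arrays, whereas the dye-swap titles name lGl first. Every sign turns if the deposited ratio is the inverse, and only the dye-swap signs turn if the columns run by dye. Spot intensities were not used here, so it is unknown how far each probe stood above background, and 2 extract pairs limit the precision.

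The neural crest is a population of migratory cells that leaves the dorsal neural tube and forms pigment cells, peripheral neurons and glia, and skeleton of the head. In zebrafish it gives black melanophores, yellow xanthophores and silvery iridophores. The transcription factors tfap2a and foxd3 act early in the crest, mitfa then directs crest cells to the melanophore fate, and enzymes such as dct and tyrp1b make melanin. Melanin genes are also active in the retinal pigment epithelium, which arises from the eye and not from the crest. In RNA from whole embryos, fewer cells of a type and less RNA per cell cannot be told apart.

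None of the 8 measured genes passed the test of NHA9 against lGl embryos. In limma, with Benjamini-Hochberg adjustment over 13261 genes and unnamed probes and a threshold of 0.05, 0 of 8 were called, against 2.84% of all items (2.04% higher and 0.792% lower). Without adjustment 0 of 8 had a p under 0.05, against 10.4% of items. The lowest adjusted p from limma was 0.662, for dct. The genes had a median ratio of −0.06, beside 0.02 over all items. Ratios reached from −0.48 for dct to 0.32 for pmela. Every 95% interval spanned 0.59 on either side of the mean, and for 6 of the 8 genes it lay within 1 unit of 0 on both sides. That width comes from an SD of 0.43 pooled over all items, since limma estimated infinite prior degrees of freedom. The p-values of this fit use that same SD, so they follow the size of the mean ratio alone. The smallest ratio called was 0.96 in size. The SD given below with each gene is its own and did not set its p.

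The extract pairs did not give the same picture. In pair 2, 7 of 8 genes had a negative ratio, against 46% of all items, and their median was −0.39 beside 0.06 over all items. In pair 1, 2 of 8 were negative, against 47.3% of all items, and the median was 0.11 beside 0.02. All 8 stood lower in pair 2 than in pair 1, as did 47.7% of all items, and at probe level 22 of 23 did, against 49.3% of all probes. Whether the pairs differ could not be tested, because each pair is 1 replicate. The sign of the median thus differed between the pairs, and it also differed by orientation, at 0.047 on forward arrays alone and −0.23 on dye-swap arrays alone.

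**Figure D1:**
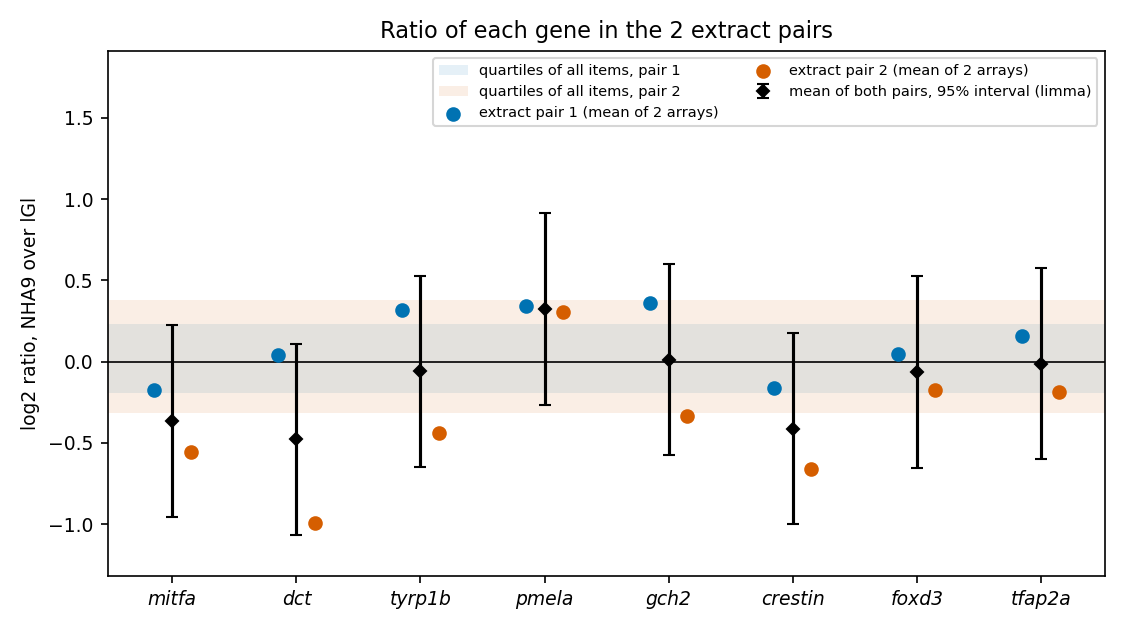
Log2 ratio of NHA9 over lGl embryos (vertical axis) for the 8 measured genes, with blue and orange points for the means of the 2 arrays of extract pairs 1 and 2, and black diamonds for the mean of both pairs with limma's 95% interval. The shaded bands run between the quartiles of all items in each pair, from −0.19 to 0.23 in pair 1 and from −0.32 to 0.38 in pair 2. The orange point lies below the blue one for every gene, and every interval crosses 0.

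Among the melanophore genes, mitfa, the regulator lost in the unpigmented nacre mutant, was measured by 1 probe. It was at −0.21 and −0.15 on the forward and dye-swap arrays of pair 1, and at −0.66 and −0.45 on those of pair 2. All 4 values were negative, with pair 2 the lower. The mean was −0.37 ± 0.27 (SD, n = 2; 95% interval −0.95 to 0.22; limma adjusted p = 0.795). Having one sign on all 4 arrays, as mitfa and crestin did on the lower side, was shared by 13.2% of all items.

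The enzyme gene dct encodes dopachrome tautomerase, which acts after tyrosinase in melanin synthesis. Averaged over its 3 probes it was at −0.13 and 0.21 on the forward and dye-swap arrays of pair 1, and at −1.31 and −0.68 on those of pair 2. The arrays of pair 1 lay on both sides of 0 and those of pair 2 well below it, with no overlap. The mean of −0.48 ± 0.73 (SD, n = 2; limma adjusted p = 0.662) therefore came from pair 2 alone, since pair 1 averaged 0.04 and pair 2 −0.99. Each of the 3 probes was lower in pair 2, at −0.72, −1.08 and −1.18, against −0.16, 0.37 and −0.09 for the same probes in pair 1.

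The tyrosinase-related gene tyrp1b, whose product acts in melanin synthesis and in the melanosome, had 1 probe. It was at 0.36 and 0.28 in pair 1 and at −0.36 and −0.52 in pair 2, again forward first. The pairs had opposite signs with close agreement between the arrays of each, and the mean was −0.06 ± 0.54 (SD, n = 2; limma adjusted p = 0.984).

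The gene pmela, which encodes the amyloid-forming scaffold protein of the melanosome, was the only one of the 4 measured melanophore genes with a positive ratio in both pairs. It was at 0.38 and 0.31 on the arrays of pair 1 and at 0.33 and 0.28 on those of pair 2. All 4 values were positive, as for 19.4% of all items, and the pairs nearly coincided, at a mean of 0.32 ± 0.03 (SD, n = 2; limma adjusted p = 0.833). Most of this came from 1 of its 3 probes, A_15_P672916, which was designed on another transcript record and stood at 0.80 ± 0.08 over the pairs (adjusted p = 0.200 in limma's fit of single probes). The other 2 probes stood at 0.00 and 0.17.

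Xanthophores make yellow pteridines, and gch2, a GTP cyclohydrolase gene, encodes the first enzyme of that route. Its average over 5 probes was 0.41 and 0.31 on the arrays of pair 1 and −0.11 and −0.56 on those of pair 2, a mean of 0.01 ± 0.49 (SD, n = 2; limma adjusted p = 0.997). This mean near 0 hides probes that disagree, although all 5 were designed on the same transcript record. Probes A_15_P419550 and A_15_P767621 were negative on all 4 arrays. The first was at −0.37 and −0.50 in pair 1 and −1.38 and −1.43 in pair 2, and the second at −0.48 and −0.40 in pair 1 and −1.51 and −1.17 in pair 2. Their means of −0.92 and −0.89 were the lowest among all 23 probes, with adjusted p of 0.0964 and 0.118 in limma's fit of single probes. The other 3 probes averaged 0.50, 0.61 and 0.76. Which of these probes reports gch2 transcript could not be settled from the ratios, so the gene's direction is uncertain even within a pair: in pair 1 its probes reached from −0.44 to 1.08.

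**Figure D2:**
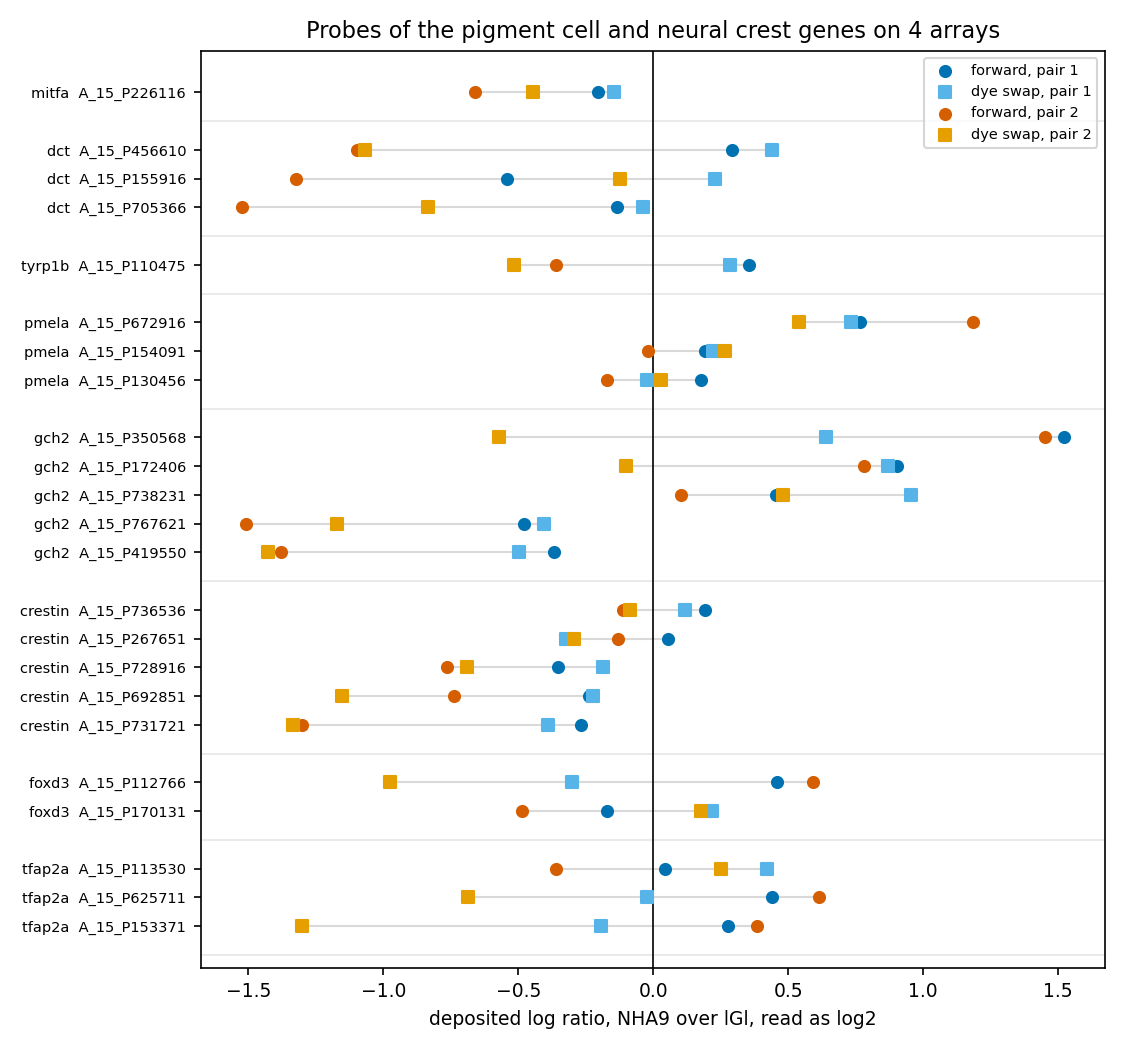
Deposited log ratio, read as log2 of NHA9 over lGl (horizontal axis), of the 23 probes of 8 genes (vertical axis), with circles for forward and squares for dye-swap arrays, blue for extract pair 1 and orange for extract pair 2, and a grey line over the range of each probe. The gch2 probes fall into 2 that are negative on all 4 arrays and 3 with positive means, and the circles and squares of foxd3 and of 2 tfap2a probes lie on opposite sides of 0.

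The transcript crestin marks premigratory and migrating crest cells of the zebrafish and belongs to a retroelement family with related copies in the genome, so probes may share signal with copies. The average of 5 probes was −0.12 and −0.20 in pair 1, forward first, and −0.61 and −0.71 in pair 2. All 4 values were negative with both of pair 2 lower, and the mean was −0.41 ± 0.35 (SD, n = 2; 95% interval −1.0 to 0.18; limma adjusted p = 0.744). Of its probes, 3 were negative on all 4 arrays, with means of −0.82, −0.59 and −0.50, and the other 2 stood at −0.17 and 0.03. The lowest, A_15_P731721, was at −1.30 and −1.34 in pair 2 against −0.27 and −0.39 in pair 1.

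In pair 2, 9 of the 23 probes stood at −0.5 or lower, a limit chosen after the values were seen, against 18.3% of all probes. They were all 3 of dct, 3 of crestin, 2 of gch2 and the probe of mitfa, while no probe of pmela, tyrp1b, foxd3 or tfap2a reached that level.

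The early crest factors foxd3 and tfap2a had means near 0. The average of the 2 foxd3 probes was 0.14 and −0.04 in pair 1 and 0.05 and −0.40 in pair 2, with a mean of −0.06 ± 0.16 (SD, n = 2; limma adjusted p = 0.983). For tfap2a, also a gene of the epidermis, the average of 3 probes was 0.25 and 0.07 in pair 1 and 0.21 and −0.58 in pair 2, with a mean of −0.01 ± 0.24 (limma adjusted p = 0.997). For both genes the dye swap of pair 2 was the lowest array.

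Behind these means the arrays split by dye orientation. The foxd3 probe A_15_P112766 was at 0.46 and 0.59 on the forward arrays of pairs 1 and 2, and at −0.30 and −0.97 on their dye swaps. The other foxd3 probe ran the opposite way, at −0.17 and −0.49 on forward arrays and 0.22 and 0.17 on dye swaps. In both probes the sign followed the orientation and not the extract pair. The tfap2a probe A_15_P153371 likewise had 0.28 and 0.39 on forward arrays against −0.19 and −1.30 on dye swaps. A second tfap2a probe did the same, with 0.44 and 0.61 on forward arrays against −0.02 and −0.69 on dye swaps, and the third was lower on the forward array of each pair. The orientation part of a probe, the forward minus dye-swap difference divided by 2 and averaged over the pairs, was larger in size than the mean of the 4 columns for 6 of the 23 probes, against 36% of all probes. These were both foxd3 probes, all 3 tfap2a probes and the dct probe A_15_P155916.

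**Figure D3:**
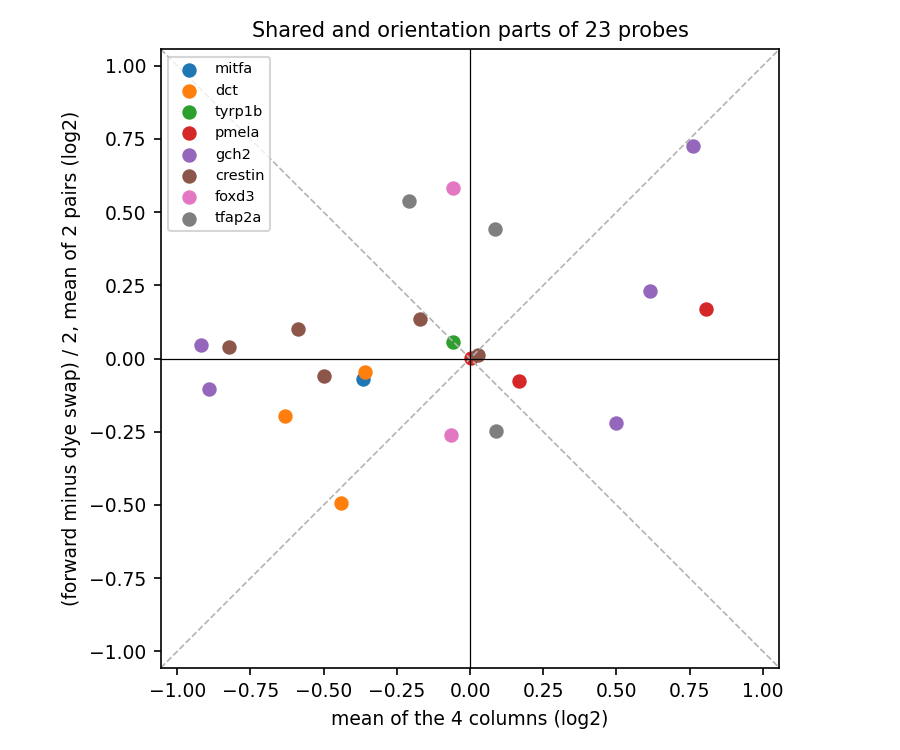
Mean of the 4 columns (horizontal axis, log2) against the forward minus dye-swap difference divided by 2 and averaged over the pairs (vertical axis, log2) for the 23 probes, coloured by gene. On the dashed lines both parts have the same size, so the foxd3 and tfap2a probes above and below the crossing have the larger orientation part, and the gch2 and crestin probes at far left have almost none.

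If the deposited columns run by dye, the orientation part is the contrast, and the result for these genes reads differently. At gene level 0 of 8 passed under that reading too, against 1984 of all 13261 items (lowest limma adjusted p = 0.0687, for dct). The ratios were 0.24 for tfap2a, −0.24 for dct, 0.16 for foxd3 and 0.14 for gch2. At probe level 5 of 23 passed in limma, against 18.5% of all probes. These were A_15_P350568 of gch2 at 0.73, A_15_P112766 of foxd3 at 0.58, A_15_P153371 and A_15_P625711 of tfap2a at 0.54 and 0.44, and A_15_P155916 of dct at −0.49. Other probes of these genes did not pass, and some had the opposite sign. The other foxd3 probe was at −0.26 and the third tfap2a probe at −0.25. The remaining gch2 probes were at 0.045, −0.10, −0.22 and 0.23. The low ratios of mitfa and crestin were not seen under that reading, where they stood at −0.07 and 0.05. With forward arrays alone 1 of 23 passed, A_15_P350568 of gch2 at 1.49, against 4.59% of all probes. On those arrays A_15_P419550 and A_15_P767621 of gch2 were negative, as given above. With all 4 columns read as a single contrast 0 of 23 probes passed, against 2.48% of all probes.

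Wider lists of the same lineages were measured to set these genes in their pathways. Some hold the genes above: dct, tyrp1b and pmela (melanin and retinal pigment epithelium), gch2 (xanthophore), and mitfa, foxd3, crestin and tfap2a (crest factors). Without them, 7 of 16 melanin, 9 of 10 xanthophore and 26 of 29 crest factor genes were lower in pair 2. The medians over both pairs were then −0.02, −0.26 and −0.06, and −0.04 for 6 retinal pigment epithelium genes. Of 28 melanin and melanosome genes listed, 19 were measured and 0 passed, with a median of −0.06 (0.14 in pair 1, −0.04 in pair 2), and 10 of 19 were lower in pair 2 than in pair 1, near the 47.7% of all items. The lowest were trpm7, a channel gene needed for melanophore survival in zebrafish, at −0.54, the pmela paralogue pmelb at −0.48, and dct. The value of pmelb rested on pair 1, at −1.25, while pair 2 was at 0.29. At the top were atp6v1h, a subunit gene of the proton pump, at 0.58, and the vesicle sorting genes vps11 and vps18 at 0.55 and 0.40. Between these stood the melanosome transporter genes slc45a2 at −0.17 and slc24a5 at 0.02, and gpr143, the ocular albinism receptor gene, at 0.11. In pairs 1 and 2, slc45a2 was at 0.10 and −0.43, slc24a5 at −0.01 and 0.05, and gpr143 at 0.55 and −0.32.

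Xanthophore and pteridine genes had the widest gap in median between the pairs among the 11 lists. Of 17 listed, 11 were measured and 0 passed, with a median of −0.21, but 0.17 in pair 1 and −0.54 in pair 2, and 10 of 11 were lower in pair 2 than in pair 1. The pteridine synthase gene pts was at 0.11 and 0.23 on the forward and dye-swap arrays of pair 1 and at −1.13 and −1.19 on those of pair 2. The sepiapterin reductase genes spra and sprb averaged 0.15 and 0.19 in pair 1, and −1.01 and −0.82 in pair 2. The recycling enzyme gene qdpra was negative in both, at −0.15 and −0.75. Among the regulators of the xanthophore lineage, pax7a was at 0.13 in pair 1 and −0.54 in pair 2, and pax7b at −0.15 and −0.57. How far the genes of this list report xanthophores in RNA from whole embryos was not tested. The carotenoid genes bco1 and scarb1 stood at 0.43 and 0.11 over both pairs and were positive in each. In pairs 1 and 2, bco1 was at 0.66 and 0.21, and scarb1 at 0.17 and 0.04. The exception to the lower pair 2 values was pcbd1, at −0.31 in pair 1 and 0.04 in pair 2. In pair 2, pts, spra and sprb, which act after gch2 in pteridine synthesis, were thus on the same side of 0 as the 2 negative gch2 probes, and the other 3 gch2 probes were on the opposite side. In pair 1 it was the reverse: pts, spra and sprb were positive like those 3 probes, and the 2 negative probes were on the opposite side.

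Iridophores reflect light from purine crystals. Of 16 iridophore and purine synthesis genes listed, 11 were measured and 0 passed, with a median of −0.03 (−0.19 in pair 1, −0.17 in pair 2), and 5 of 11 were lower in pair 2, again near the share of all items. The iridophore marker pnp4a, a purine nucleoside phosphorylase gene, was at 0.13 and 0.09 on the arrays of pair 1 and at −0.97 and −0.74 on those of pair 2. The pairs did not overlap, and the mean was −0.37 (limma adjusted p = 0.791). The purine synthesis genes pfas and atic were at −0.47 and −0.25, and impdh1b, of guanine nucleotide synthesis, was highest at 0.62 with one sign on all 4 arrays, above gart and impdh2 at 0.21 and 0.19. Enzymes of this list serve every dividing cell, so they are not specific to iridophores.

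Neural plate border and crest transcription factors numbered 33 measured of 38 listed, crestin included, and 0 passed. Their median was −0.06, 0.06 in pair 1 and −0.22 in pair 2, and 30 of 33 were lower in pair 2 than in pair 1, against the 47.7% of all items. The lowest were twist1b, a factor of head mesenchyme, at −0.44, crestin, and msx1a, a border gene, at −0.38. At the other end stood dlx5a at 0.25, olig3 at 0.20 and tfap2b at 0.15. sox10, which acts upstream of mitfa in crest cells, was at 0.10 in pair 1 and −0.10 in pair 2. Its relative sox9a was at 0.39 in pair 1 and −0.81 in pair 2, and sox9b at −0.24 and −0.45. The closest relative of tfap2a with a partly shared role, tfap2c, was at −0.06. In pair 2 the mean of sox10 was nearer 0 than that of mitfa, at −0.55, but the 2 arrays of sox10 had opposite signs. They stood at −0.40 on the forward array and 0.19 on the dye swap, against −0.66 and −0.45 for mitfa.

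Of the signals that guide these cells, 19 of 35 listed receptor and ligand genes were measured and 0 passed (median 0.06, with 0.16 in pair 1 and 0.04 in pair 2). The semaphorin gene sema3fa and kitlgb, a Kit ligand gene, were lowest at −0.89 and −0.88 (limma adjusted p = 0.0909 and 0.0960). Both rested on pair 2, where sema3fa was at −1.55 and kitlgb at −1.61, against −0.22 and −0.14 in pair 1. Next came csf1b, a ligand gene of the Csf1 receptor, at −0.18. The other Kit ligand gene, kitlga, whose product guides melanophores through Kita in zebrafish, was at −0.04 in pair 1 and 0.09 in pair 2. The highest were edn2, an endothelin gene, at 0.61, il34, a ligand of the Csf1 receptor, at 0.61, and sema3fb at 0.34, each positive on all 4 arrays. Of 25 genes of skeletal, neuronal and glial crest derivatives, 15 were measured and 0 passed, with a median of 0.01 (0.10 and −0.17 in pairs 1 and 2). The cartilage collagen gene col2a1a was lowest at −0.42, followed by dlx2b at −0.34 and dlx4b at −0.23, and dlx4a was highest at 0.49, above hand2 and ret at 0.21 each.

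Markers of other cell types were taken beside these results. Of 15 retinal pigment epithelium genes 9 were measured, dct, tyrp1b and pmela included, and 0 passed (median −0.06). The opsin-like gene rgra, on 1 probe, was at −0.93 and negative on all 4 arrays (limma adjusted p = 0.0614). It was at −0.62 in pair 1 and −1.25 in pair 2. Its paralogue rgrb, on 3 probes, was at −0.18, with −0.43 in pair 1 and 0.06 in pair 2. The gene otx2b was at 0.11 in pair 1 and −0.67 in pair 2. On the other side of 0 were rpe65a, the visual cycle isomerase gene, at 0.10, lrata at 0.50 and otx2a at 0.12. Neuronal genes were also lower in pair 2, with 10 of 10 measured, 0 past the threshold, a median of 0.03 in pair 1 and −0.29 in pair 2, and 9 of 10 lower in pair 2. In that pair they ranged from −1.69 for elavl4 to 0.24 for stmn2a. Over both pairs elavl4 was lowest at −0.86, followed by elavl3 at −0.28 and stmn1a at −0.26, and snap25b and stmn2a were highest at 0.16 and 0.15, above gap43 at −0.08. Of crest derivative genes 13 of 15 were lower in pair 2 than in pair 1, and of receptor and ligand genes 13 of 19, against 47.7% of all items. The lower pair 2 values of the 8 genes and of the xanthophore, crest factor and crest derivative lists thus came together with lower values of neuronal genes. Some epidermal genes, given below, were also lower in pair 2. The part of either in the result was not tested.

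Epidermal and hatching gland genes, where tfap2a is also active, were not lower in pair 2 as a list. Of 15 measured, 8 were lower in pair 2, and the list median was −0.28 in pair 1 and 0.17 in pair 2. The list was mixed. In pairs 1 and 2, tp63, the basal epidermal regulator, was at −0.28 and −0.79, and the keratin gene krt5 at −0.28 and −0.71. The epithelial adhesion gene epcam was at −0.29 and −0.60. Also lower in pair 2 were krt4 (0.16 and −0.60), cldni (0.34 and −0.36), cldne (0.47 and −0.41), he1.1 and he1.2. By contrast krt91, krt92, krt8, cyt1, cyt1l, ctslb and cdh1 were higher in pair 2. Over both pairs tp63, krt5 and epcam were lowest, at −0.53, −0.50 and −0.44. Only the cadherin gene cdh1 passed, higher in NHA9 embryos at 1.03 (limma adjusted p = 0.0257), on 1 probe. It was at −0.24 with dye-swap columns turned by their dyes and at 0.79 on forward arrays alone (limma adjusted p = 0.166). On dye-swap arrays alone cdh1 passed at 1.28 (limma adjusted p = 0.00208). The hatching enzyme genes he1.1 and he1.2 split by orientation as tfap2a did, with 1.13 and 1.58 for he1.1 on forward arrays of pairs 1 and 2, against 0.03 and −0.76 on dye swaps, and both stood high over the pairs, at 0.49 for he1.1 and 0.62 for he1.2. Genes of macrophages, which share the Csf1 receptor with xanthophores, had positive ratios on all 4 arrays in 9 of 9 measured, with medians of 0.71 in pair 1 and 0.55 in pair 2, and 2 of them passed. The macrophage perforin-like gene mpeg1.1 passed at 1.08 (limma adjusted p = 0.0158), and slc7a7, which encodes a transporter of amino acids, at 1.16 (limma adjusted p = 0.00640), with 0.63 in pair 1 and 1.69 in pair 2. Turned by dye, mpeg1.1 was at 0.12 and did not pass (limma adjusted p = 0.349), and slc7a7 was at 0.45 and did. The dye swaps by themselves gave 0.71 for slc7a7, short of the threshold (limma adjusted p = 0.244). Of the other macrophage genes ptprc, the leukocyte phosphatase gene CD45, was highest at 0.66, and mfap4.1, spi1b and spi1a were lowest at 0.18, 0.46 and 0.47. With the replicate block and no dye term cdh1, mpeg1.1 and slc7a7 did not pass (limma adjusted p = 0.138, 0.0761 and 0.303), nor did they after arrays were scaled to one spread (limma adjusted p = 0.0772, 0.0724 and 0.0837). With the block and a dye term slc7a7 did not pass (limma adjusted p = 0.0544). Blood progenitor genes, where kita is also active, had a median of 0.25 over 5 measured, and 0 passed. The haematopoietic factor genes lmo2, tal1, myb and gata2a were at 0.44, 0.25, 0.19 and 0.0015, and drl at 0.58.

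**Figure D4:**
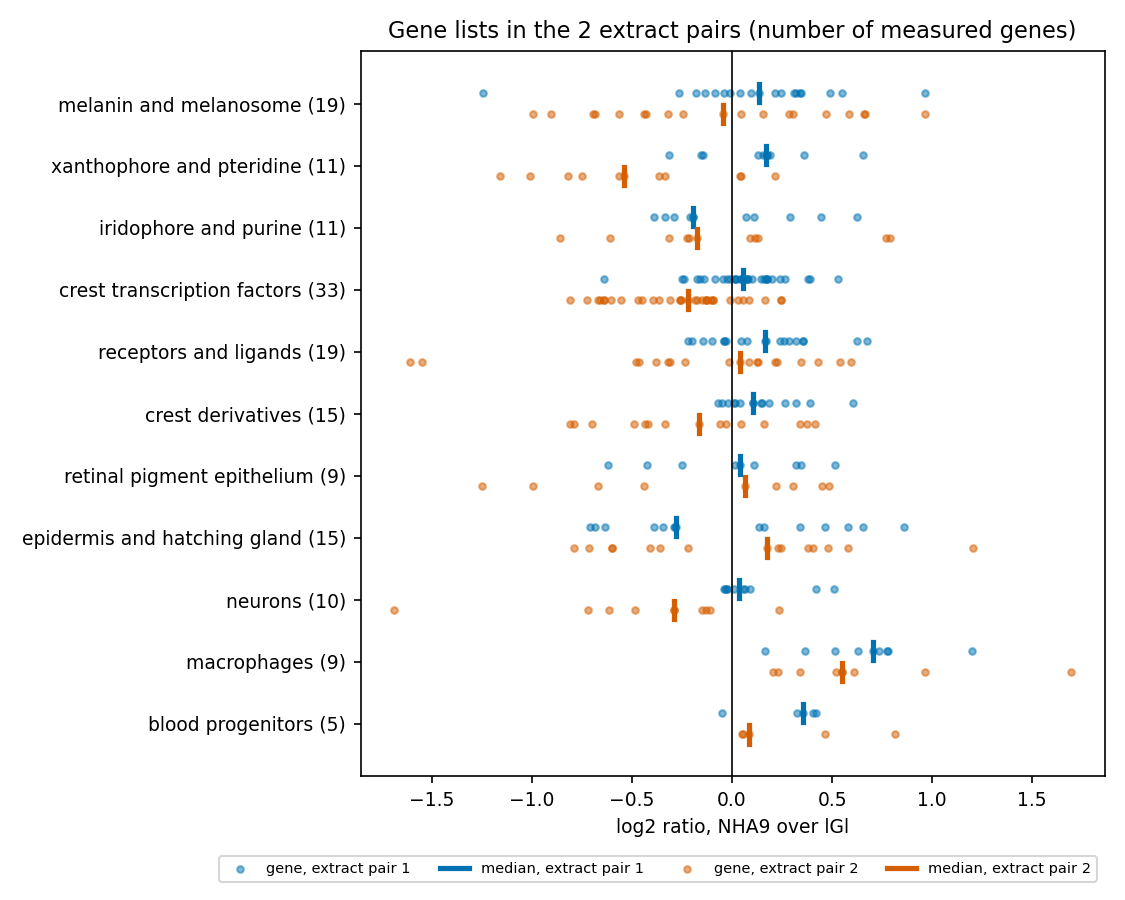
Log2 ratio of NHA9 over lGl (horizontal axis) of each measured gene of 11 lists (vertical axis, number of measured genes in brackets), with blue for extract pair 1, orange for extract pair 2 and a vertical bar at each median. The orange median lies left of the blue one for every list but the iridophore, retinal pigment epithelium and epidermal ones (for xanthophore genes at −0.54 against 0.17), and the macrophage medians are positive in both pairs.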

How the data were processed

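The authors deposited 1 log ratio per probe for each of 4 arrays with 2 channels, and the base was taken as log2 from the range of the values. Per the labels, the RNA came from Trizol and RNeasy columns, was labelled directly and was amplified where scarce. The channel fields of the labels name Cy5 and Cy3, while the protocol names far-red and orange Alexa Fluor dyes. The sources used here give no scanner, background correction, normalization or probe filter. Probes were named through the platform's annotation table with symbols updated through RefSeq (GRCz12tu): 14620 by accession, 1676 by current symbol, 506 by synonym and 8 kept, with 0 of several symbols and 3596 unnamed. Probes of a gene were averaged (9665 genes), and an array and its dye swap, which share extracts and a replicate number per the labels (r = 0.747 and 0.465), were averaged to 1 replicate. The mean of 2 replicates was tested against 0 with limma 3.58.1 in R 4.3.3, Benjamini-Hochberg adjusted over 13261 items. The fit was also run on simulated data with the fitted SD for every item and no dye or pair effect. That run therefore cannot show how well the fit suits these arrays. Alternatives covered the reading by dye, a replicate block, single orientations, scaling, quantiles, centring, single probes and each pair alone. Named were every measured gene of the 10, genes of the wider lists that passed, the 3 highest and 3 lowest of each and close paralogues; further list genes were named for their roles after their values were seen. Members and lists were chosen with earlier results of these data known.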

Additional observations from a re-analysis of the deposited data

How the results depend on the processing

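Of the 8 genes 0 passed under each of the 9 alternatives that give a test, with a lowest limma adjusted p of 0.0687. Their median of −0.06 was −0.39 without replicate 1 and 0.11 without replicate 2, and 0.047 with forward arrays alone, −0.23 with dye-swap arrays alone and 0.051 turned by dye, so its sign depends on the pair, the orientation and the reading. The replicate block left 0 of 8 passing, with a lowest limma adjusted p of 0.458 without a dye term and 0.642 with one, in which the correlation within pairs was taken from mean squares over all items. Over all 13261 items limma called 376. It called 114 with the replicate block and no dye term, 255 with the block and a dye term, and 174 once arrays were scaled to one spread. The count was 508 with dye-swap arrays alone, 444 after quantile normalization, 370 after centring and 453 with each probe kept apart. It was 617 with forward arrays alone and 1984 with dye-swap columns turned by their dyes. That last reading also called 5 of 23 probes of the 8 genes, against 18.5% of all probes. Beside its 1984 of 13261 items, it called 3 of 19 melanin, 1 of 11 xanthophore and 2 of 11 iridophore genes. It also called 3 of 33 crest factor, 2 of 15 crest derivative and 1 of 9 retinal pigment epithelium genes. Of the other lists it called 7 of 15 epidermal, 1 of 9 macrophage and 3 of 10 neuronal genes. In it the medians were −0.15 for iridophore genes, −0.052 for receptors and ligands, 0.12 for macrophage genes and −0.0093 for blood progenitor genes. With forward arrays alone 1 probe of gch2, 1 melanin gene (atp6v1h), 1 ligand gene (kitlgb), 2 epidermal genes (he1.1 and he1.2) and 2 macrophage genes (mpeg1.1 and slc7a7) passed. The medians there were −0.10 for iridophore, −0.18 for retinal pigment epithelium and 0.71 for macrophage genes. With dye-swap arrays alone 1 epidermal gene (cdh1) and 1 macrophage gene (mpeg1.1) passed. The medians there were 0.15 for iridophore, −0.11 for retinal pigment epithelium and −0.42 for epidermal genes. After scaling arrays to one spread 0 epidermal and 0 macrophage genes passed, and the iridophore and retinal pigment epithelium medians were −0.077 and 0.018. The replicate block without a dye term also left 0 epidermal and 0 macrophage genes, and with a dye term 1 macrophage gene, and it changed no other call of a gene named here. Turned by dye, cdh1 was at −0.24 and mpeg1.1 at 0.12. After quantile normalization the iridophore and retinal pigment epithelium medians were −0.082 and 0.036, and 1 retinal pigment epithelium gene (rgra) passed. With each probe kept apart, where a gene counts if any probe passes, 1 iridophore gene (impdh1b) and 2 epidermal genes passed. Without replicate 1 and without replicate 2 the medians were −0.043 and 0.14 for melanin genes, −0.17 and −0.19 for iridophore genes, 0.042 and 0.16 for receptors and ligands, 0.063 and 0.040 for the retinal pigment epithelium and 0.55 and 0.71 for macrophage genes. With 1 pair left there is no test, so no counts were made. The cause of these shifts was not tested.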
